A study of Mus musculus with 8 samples.

Results

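Padi2 and Padi4 are the only 2 members of the mouse peptidylarginine deiminase (PAD) family, out of 5 in the table, that passed the filter on low counts in sorted tumour neutrophils, and their levels lay in opposite directions between the sorted fractions. They were taken as the rows with these gene names among the 54532 genes of the deposited count table, and they were chosen by their read counts in these 8 libraries, which lie in opposite directions in the 2 fractions, so that difference is described here without a test. Balb/c mice carried tumours of 2208L, a mouse mammary tumour line, in a mammary fat pad, and the tumours were dissociated once they were 1 cm across. Sorting of their neutrophils separated an ICAM1high from an ICAM1low fraction by the level of ICAM1 (CD54), an adhesion molecule of leukocytes and endothelium. Padi2 passed the filter through its counts in ICAM1high, 34 to 120 per library, against 0 to 14 in ICAM1low. The libraries, 4 per fraction, were labelled as untreated biological replicates, and the labels give no genotype or age and do not say whether each came from its own mouse. P-values therefore measure only the spread between these samples.

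PAD enzymes convert the positively charged arginine residues of proteins into neutral citrulline, a reaction that needs calcium. PAD4 is the member with a nuclear localisation signal, is abundant in neutrophils and citrullinates histones, a step by which chromatin unfolds when neutrophils release extracellular traps. PAD2 is the most broadly expressed member, is found in macrophages, mast cells, glia and muscle, and modifies vimentin and myelin basic protein as well as histones. PAD1 and PAD3 act mainly in epidermis and hair follicles, and PAD6 is an oocyte protein.

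Total counts ran from 10328575 to 22751975 per library. Counts of libraries of 1 fraction differed beyond counting error, and ICAM1high replicate 1 and ICAM1low replicate 4 stood apart. Pairs of libraries with 1 of these had a chi-square of 93.4 to 212 per degree of freedom, and pairs without them 12.4 to 58.8. The sorted marker Icam1 was higher in ICAM1high, at 1459 ± 202 against 848 ± 214 CPM (SD, n = 4, edgeR quasi-likelihood test with Benjamini-Hochberg adjustment, adjusted p = 0.0105), but missed the threshold with replicates 1 and 2 alone (log2 difference 0.52, adjusted p = 0.258). Of 14051 genes tested, 42.1% passed at an adjusted p under 0.05, 22.6% as higher and 19.6% as lower in ICAM1high. Levels are CPM, counts relative to the library size, scaled by the trimmed mean of M values (TMM), and log2 differences are ICAM1high over ICAM1low. Of 15 neutrophil markers, 15 fell in ICAM1high, and their summed level was 12200 to 16900 CPM there against 54100 to 97600 CPM in ICAM1low. Of 16 macrophage and monocyte markers 14 rose, and their summed level was 11000 to 18100 CPM against 1260 to 1930 CPM. Ly6g, the defining antigen of mouse neutrophils, was at 3.78 ± 1.89 CPM in ICAM1high and 35 ± 29.8 CPM in ICAM1low, and no marker of either list was at 0 in all libraries. Without ICAM1high replicate 1 and ICAM1low replicate 4, the log2 difference of Padi2 was 3.38 and that of Padi4 -2.47, against 3.69 and -2.58 with all libraries.

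Both members lie on chromosome 4 in mm10, inside a cluster of the 5 family genes that spans 225.2 kb. Padi4 (ENSMUSG00000025330) runs from 140745865 to 140774236 on the minus strand, and Padi2 (ENSMUSG00000028927) from 140906344 to 140952586 on the plus strand. Their starts are 132.1 kb apart, with Padi3 and Padi1 between them, and the longest annotated transcript of each (GENCODE M21) has 16 exons. The promoters are shown because 2 paralogous genes of 1 locus had opposite patterns. They are RefSeq sequences of GRCm38.p6, from 250 bases before to 50 bases after the start that RefSeq annotates, written 5′ to 3′ on the gene's strand, at chr4:140906110-140906409 for Padi2 and chr4:140774154-140774453 for Padi4. That RefSeq start is 140906360 for Padi2 and 140774203 for Padi4, 16 and 33 bases inside the starts of the deposited gene models, and motif distances are counted from it. Capitals mark matches to 6 motifs searched on both strands.
Padi2: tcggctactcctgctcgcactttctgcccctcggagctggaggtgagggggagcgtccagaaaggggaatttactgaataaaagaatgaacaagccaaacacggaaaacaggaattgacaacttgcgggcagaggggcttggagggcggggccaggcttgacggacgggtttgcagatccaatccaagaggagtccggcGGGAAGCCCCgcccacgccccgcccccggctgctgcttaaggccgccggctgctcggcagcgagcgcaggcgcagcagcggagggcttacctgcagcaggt
Padi4: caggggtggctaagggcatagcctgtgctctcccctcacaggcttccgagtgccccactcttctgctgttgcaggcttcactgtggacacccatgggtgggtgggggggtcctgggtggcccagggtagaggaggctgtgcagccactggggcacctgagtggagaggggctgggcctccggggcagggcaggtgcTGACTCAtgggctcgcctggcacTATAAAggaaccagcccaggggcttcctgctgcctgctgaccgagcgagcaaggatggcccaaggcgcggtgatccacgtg
The PU.1 motif of myeloid factors was searched as GAGGAA, where every letter counts. For C/EBP factors of granulocytes the letters were TTGCNNAA, in which N is any base. The AP-1 motif was searched as TGANTCA, and that of the MiT/TFE factors of lysosomal genes as TCACGTG. The NF-kB motif was searched as GGGAA followed, after 3 bases of any kind, by CC, and the TATA box as TATAAA. In the Padi4 window, the TATA box letters were found at 31 to 26 bases before the start and the AP-1 letters at 54 to 48 bases before it. In the Padi2 window, the only match was to the NF-kB letters, at 51 to 42 bases before the start. None of these 3 matches overlapped another. Across 32851 mouse promoter windows of this length, 13.6% held the TATA box letters, 7.81% the AP-1 letters and 5.78% the NF-kB letters, while the PU.1, C/EBP and MiT/TFE letters, found in neither window, were held by 28.3%, 10.8% and 3.77%. The windows also differed in CpG content, with 22 CpG in Padi2 and 8 in Padi4, against a median of 7 over all windows. The ratio of observed to expected CpG was 0.74 and 0.25 at a similar GC content, 63.3% and 66.3%. A match is a description of letters and not of factor binding, which was not measured.

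Padi4, the histone-citrullinating enzyme, had its lower level in ICAM1high. In ICAM1high replicates 1 to 4 it measured 6.05, 6.17, 6.95 and 7.02 CPM. In ICAM1low replicates 1 to 4 it measured 39.4, 39.6, 30.2 and 47.2 CPM. The fractions did not overlap, the ICAM1high libraries were nearly level, and ICAM1low replicates 3 and 4 were the lowest and highest of their group. The means were 6.55 ± 0.507 and 39.1 ± 6.97 CPM (SD, n = 4), a 5.97-fold lower level in ICAM1high and a fitted log2 difference of -2.58 (SE 0.18). In such bulk samples, fewer cells of a type and less RNA per cell cannot be told apart. These values rest on 528 counts in ICAM1high and 2466 in ICAM1low. Of all genes tested, 74 had a more negative difference. When libraries were scaled by their totals alone, the Padi4 difference was -1.89, while the median of all genes moved from 0.08 to 0.76.

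Padi2, the broadly expressed PAD of macrophages and other cells, was measured at low depth and in the other direction. In ICAM1high replicates 1 to 4 it had 4.94, 4.98, 4.49 and 2.59 CPM, from 120, 117, 93 and 34 counts. In ICAM1low replicates 1 to 4 it had 0, 0.856, 0.230 and 0.187 CPM, from 0, 14, 4 and 3 counts. The fractions did not overlap, ICAM1high replicate 4 was the lowest of its group, and ICAM1low replicate 2 held most of the counts in its group. For ICAM1low replicate 1, a count of 0 allows up to 0.220 CPM, the level of 3 counts, and this limit covers counting error only. The means were 4.25 ± 1.13 and 0.318 ± 0.372 CPM (SD, n = 4), a 13.4-fold higher level in ICAM1high and a fitted log2 difference of 3.69 (SE 0.69). The size of this difference leaned on ICAM1low replicate 2: without it the value was 4.81, and it was 4.30 with limma-voom and 4.33 with library totals. Of all genes tested, 229 had a larger positive difference. For comparison, groups did not overlap for 41.5% of all genes tested.

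**Figure D1:**
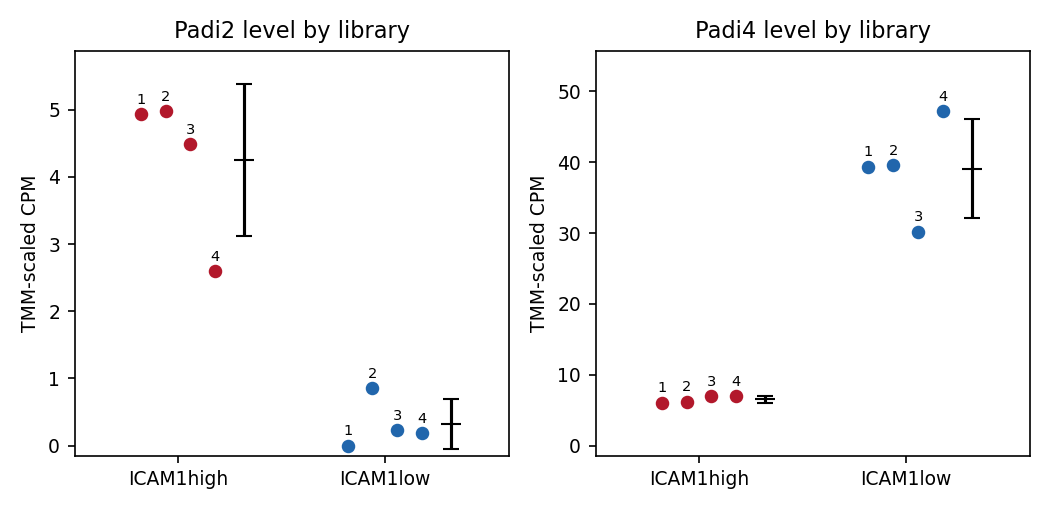
TMM-scaled CPM of Padi2 (left) and Padi4 (right) in each library, with the replicate number above each point and the mean ± SD of 4 libraries beside each group. The Padi2 points of ICAM1high sit between 2.59 and 4.98 CPM, above all ICAM1low points, and the Padi4 points of ICAM1high sit between 6.05 and 7.02 CPM, below all ICAM1low points.

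The makeup of PAD transcript differed between the fractions as well as its amount. Since the members were chosen for opposite directions, a different makeup follows from that choice and is only described here. Per kilobase of deposited gene length (5013 bases for Padi2 and 4835 for Padi4), Padi4 reached 1.35 ± 0.105 CPM per kb in ICAM1high and 8.09 ± 1.44 in ICAM1low, and Padi2 reached 0.848 ± 0.225 and 0.0635 ± 0.0742 (SD, n = 4). Padi4 exceeded Padi2 in 8 of 8 libraries on this scale. The ratios and shares below depend on the deposited lengths. The longest annotated transcripts are 4774 bases for Padi2 and 3021 for Padi4, and these lengths would raise Padi4 relative to Padi2. In ICAM1high the ratio of Padi4 to Padi2 was 1.27, 1.28, 1.61 and 2.81 in replicates 1 to 4. In ICAM1low it was 47.9, 136 and 262 in replicates 2 to 4, and replicate 1 had no Padi2 count. Padi2 thus made up 44.1%, 43.8%, 38.4% and 26.3% of the summed per-length level in ICAM1high replicates 1 to 4, and 0%, 2.04%, 0.729% and 0.381% in ICAM1low. As a share of the raw counts of both genes, the exact (Clopper-Pearson) 95% interval was 19.5% to 35.6% in ICAM1high replicate 4, the lowest of its group, and 1.16% to 3.53% in ICAM1low replicate 2, the highest of its group. These intervals cover counting error only and describe single libraries. The summed level was 2.20 ± 0.161 CPM per kb in ICAM1high and 8.15 ± 1.44 in ICAM1low.

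**Figure D2:**
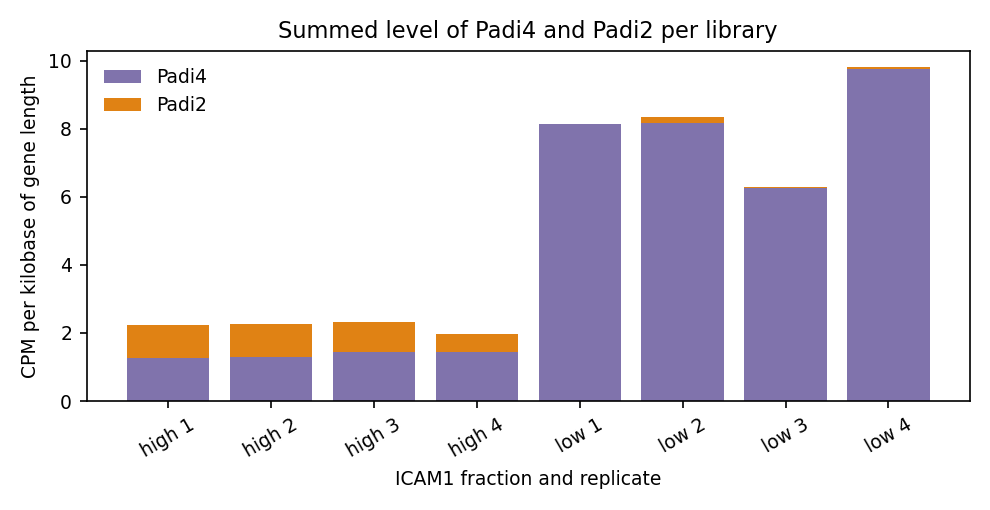
Stacked bars of Padi4 (purple) and Padi2 (orange) in CPM per kilobase of gene length for each of the 8 libraries. The bars of ICAM1high reach 1.97 to 2.33 with a visible Padi2 part, and those of ICAM1low reach 6.29 to 9.81 and are almost wholly Padi4.

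The other 3 family members were near the detection limit and none passed the filter, so none was tested. Padi3 had 26 counts in all ICAM1high libraries and 12 in all ICAM1low libraries, with 10 counts at most in a library. Padi1 had 3 and 8 counts, of which 7 fell in ICAM1low replicate 3. Padi6 had a single count in ICAM1high replicate 2 and 0 in ICAM1low, fewer than the 3 counts used as the detection limit.

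Padi2 and Padi4 shared little sequence that could place a read on either gene. The longest run of bases shared by their longest annotated transcripts, of 4774 and 3021 bases, was 13. Padi4 and Padi1 shared a run of 35 bases, and Padi1 and Padi3 a run of 63. No window of 50 bases of the Padi4 transcript occurred in an annotated transcript of another gene. Of 4725 such windows of Padi2, 151 (3.20%) did. The read length was not stated. On the genome, no annotated gene overlapped Padi4, and the genes that overlapped Padi2, the antisense Gm13031 and the small nuclear Gm26226, had 3 and 0 counts in all libraries against 385 for Padi2.

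The difference between fractions could be compared between replicates 1 and 2 and replicates 3 and 4, whose library numbers form separate runs in the labels. The choice of the members did not use this split. Padi4 averaged 6.11 against 39.5 CPM in the first run and 6.98 against 38.7 CPM in the second. Padi2 averaged 4.96 against 0.428 CPM in the first run and 3.54 against 0.209 CPM in the second. The difference of the log2 effects, first run minus second, was -0.22 (SE 0.38, edgeR adjusted p = 0.799) for Padi4 and -0.59 (SE 1.37, adjusted p = 0.856) for Padi2. The SE of Padi2 was larger than the estimate itself, and a p that misses the threshold does not show that the runs were alike. The same test called 0 of 14051 genes (0%), with 1606 at an unadjusted p under 0.05, and 667 when low-count genes were kept.

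The Padi4 difference (-2.58) lay within the range of the neutrophil markers, and the Padi2 difference (3.69) within that of the macrophage markers. The members were chosen for opposite directions, so these positions follow in part from the choice and were not tested. The median log2 difference was -2.21 over the 15 neutrophil markers and 3.97 over the 16 macrophage and monocyte markers, against 0.08 over all genes. Per 1000 CPM of summed neutrophil markers, Padi4 was at 0.457 ± 0.0695 CPM in ICAM1high and 0.599 ± 0.144 in ICAM1low (SD, n = 4). By library these values were 0.357, 0.507, 0.5 and 0.464 in ICAM1high and 0.717, 0.732, 0.465 and 0.484 in ICAM1low, and the fractions overlapped. A few genes weigh heavily in this sum. In ICAM1low replicate 4, S100a8 and S100a9 held 18810 and 36030 of 97620 CPM. In ICAM1high replicate 2 they held 750.7 and 1916 of 12170 CPM. The overlap is stated only for the sum with both genes in it. Whether the fractions overlap without them was not tested. Per 1000 CPM of summed macrophage and monocyte markers, Padi2 was at 0.307 ± 0.0641 CPM in ICAM1high and 0.210 ± 0.250 in ICAM1low. By library it was at 0.273, 0.374, 0.347 and 0.236 in ICAM1high and 0, 0.57, 0.171 and 0.0969 in ICAM1low. The ICAM1low values rest on 0, 14, 4 and 3 Padi2 counts. Only ICAM1low replicate 2 overlapped, and the other ICAM1low libraries lay below all ICAM1high libraries. Apoe weighs heavily in this sum, with 9899 of 18080 CPM in ICAM1high replicate 1 and 320 of 1262 CPM in ICAM1low replicate 1. The part of other cells in the Padi2 and Padi4 differences was not tested. The summed markers of other cells are given beside these. Tumour epithelial markers were at 119 to 170 CPM in ICAM1high and 274 to 479 in ICAM1low, and B and plasma cell markers at 44.5 to 114 and 7.43 to 17.8 CPM. Endothelial and fibroblast markers were at 82.8 to 153 and 55.2 to 80.2 CPM, and T and NK cell markers at 23.2 to 32.2 and 13.8 to 22 CPM. Of the 2 tested T and NK cell markers, Cd4 rose and Cd3d fell in ICAM1high. Their log2 differences were 3.843 and -1.275 (edgeR, adjusted p = 4.8e-05 and 0.00403), so the sum gives no common direction for this list. Dendritic cell markers were at 14.8 to 26.9 and 22.4 to 27.3 CPM. Immature neutrophil markers, of which 5 of 7 tested fell, summed to 358 to 670 CPM in ICAM1high and 1470 to 5540 CPM in ICAM1low. Mast cell, basophil and eosinophil markers summed to 120 to 174 CPM in ICAM1high and 77.9 to 107 CPM in ICAM1low. Of these, Siglecf alone held 138 ± 21.9 and 70.7 ± 11.4 CPM. Fcer1a was at 0, and Cpa3, Mcpt8, Epx and Prg2 were under 1 CPM in every library. Of the 3 tested markers of this list, Siglecf rose and Kit and Ccr3 fell in ICAM1high. Their log2 differences were 0.961, -0.995 and -1.596 (edgeR, adjusted p = 0.0016, 0.0458 and 0.000424). The sum thus gives no common direction for this list either.

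The genes whose pattern over the 8 libraries was most like that of each member were ranked among 7697 protein-coding candidates whose average log2 CPM reached 3. Likeness was the root mean square difference of log2 CPM after each gene's mean was removed, so that a like difference between fractions counts as likeness. For Padi4 the nearest were Rnf144a, a ubiquitin ligase, at 0.214, Ell, a transcription elongation factor, at 0.217, Smox, spermine oxidase, at 0.225, and Sesn2, a sestrin of the stress response, at 0.226, against a median of 1.33 over all candidates. Smox measured 499 ± 70.3 CPM in ICAM1high and 2899 ± 403 CPM in ICAM1low. Spatc1, the lactate exporter Slc16a3, Pi16, the triglyceride synthase Dgat2 and the sheddase Adam8 followed, at 0.239 to 0.278. The nearest neutrophil marker was Hdc, at rank 31, and 5 of the 15 neutrophil markers were among the first 100.

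For Padi2 likeness was looser. Padi2 itself averaged a log2 CPM of 1.3, below the limit of 3 set for the candidates, against 4.52 for Padi4. Its SD of log2 CPM within fractions was 0.96, against 0.2 for Padi4. The part of low counts in these distances was not tested. The nearest were Gdf3, a ligand of the TGF-beta family, at 0.428, Cxcl14, a chemokine, at 0.468, Cryl1 at 0.489, Phf11b at 0.502 and Pianp at 0.507, against a median of 2.04. Gdf3 measured 27.9 ± 7.13 CPM in ICAM1high and 1.88 ± 0.968 CPM in ICAM1low. Ada, adenosine deaminase, Ifi44l, the chemokine Pf4 and Rftn1 followed, at 0.518 to 0.581. The nearest macrophage marker was Selenop, at rank 44, and 9 of the 15 macrophage and monocyte markers that were candidates were among the first 100.

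**Figure D3:**
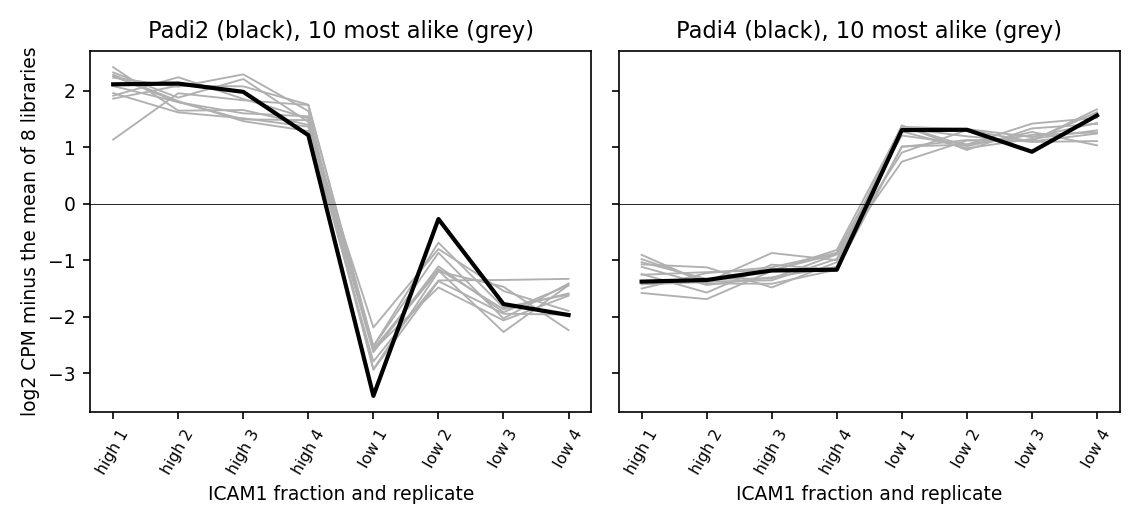
Log2 CPM minus the mean over 8 libraries, for Padi2 (left) and Padi4 (right) in black and the 10 genes most alike in grey, by ICAM1 fraction and replicate. The grey lines keep close to Padi4, at 0.214 to 0.278, and lie farther from Padi2, at 0.428 to 0.581.

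Genes around the PAD cluster moved in both directions and mostly less than the members. Within 250 kb of the cluster the table listed 24 genes with the family included, and 9 besides the members passed the filter, of which 4 rose and 2 fell in ICAM1high (edgeR, adjusted p under 0.05; 42.1% of all genes passed). The largest change among these 6 was in Atp13a2, a lysosomal polyamine transporter that starts 212.6 kb beyond Padi4, at 153 ± 4.49 against 50.5 ± 18.8 CPM with a log2 difference of 1.6 (SE 0.24, adjusted p = 0.000578). Rcc2, a mitotic regulator next to Padi6, rose by 1.14 (SE 0.18, adjusted p = 0.000623). Crocc, the ciliary rootlet protein, was at 1.10 (adjusted p = 0.0222) and Arhgef10l, a guanine nucleotide exchange factor, at 0.80 (adjusted p = 0.0327). Crocc missed the threshold without ICAM1high replicate 2, 3 or 4 or ICAM1low replicate 3, and Arhgef10l without ICAM1high replicate 2 or 3 or ICAM1low replicate 1 or 2. Sdhb, the succinate dehydrogenase subunit that lies next to Padi2, was at 0.30 (SE 0.34, adjusted p = 0.505) and was called under library totals (1.00), but stood at -0.03 without ICAM1high replicate 1. Farther away, Fbxo42 and Szrd1 fell by 0.87 and 0.66 on the log2 scale (adjusted p = 0.000918 and 0.0121), but neither passed under library totals, where Szrd1 turned to 0.04. Necap2 (-0.10, adjusted p = 0.756) did not pass, nor did 4921514A10Rik (-1.70, adjusted p = 0.144), which overlaps Szrd1 and passed at -2.12 without ICAM1low replicate 4.

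**Figure D4:**
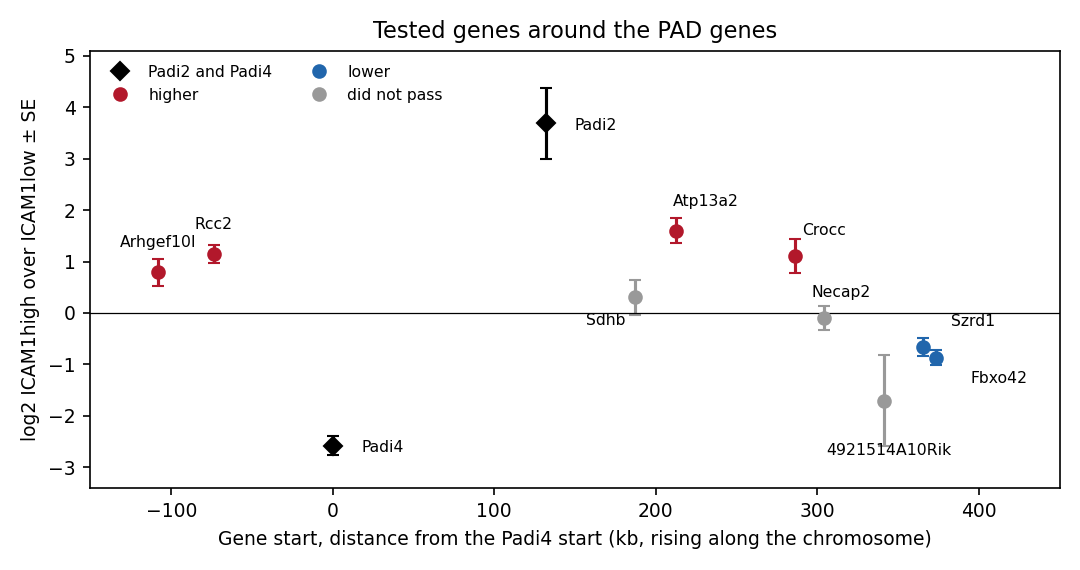
Log2 difference of ICAM1high over ICAM1low ± SE for the 11 tested genes within 250 kb of the PAD cluster, against the distance of each gene's start from that of Padi4 in kb. Padi4 at -2.58 and Padi2 at 3.69 (black diamonds, no test) lie farther from 0 than the 9 other genes, which run from -1.70 to 1.6.

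Genes of extracellular trap formation, the process PAD4 is best known for in neutrophils, fell in ICAM1high. Of 27 tested genes in this list, 0 rose, 22 fell and 5 did not pass by edgeR, with a median log2 difference of -1.38, where 19.6% of all genes fell. At an unadjusted p under 0.05, 2 of the 27 were higher, and DESeq2 and limma-voom called 0 and 1 higher, as did edgeR for 1 gene without ICAM1low replicate 1. Gsdme, a pore-forming gasdermin, was at 14.4 ± 2.70 against 57.4 ± 4.77 CPM with a log2 difference of -1.995 (SE 0.17, adjusted p = 1.98e-05), and Lmnb1, the nuclear lamin that is cut as traps form, at -1.61 (SE 0.16, adjusted p = 4.71e-05). The calprotectin subunits, named like Gsdmd after their values were seen, were at -3.13 (S100a8) and -3.003 (S100a9), and the gasdermin Gsdmd at -0.66 (adjusted p = 0.0197). The classical trap proteases and peroxidase, Elane, Ctsg and Mpo, were under 1 CPM in every library and were not tested. Of the 30 genes in the list, 9 were also in the neutrophil or immature neutrophil marker lists. Under library totals 13 fell and 4 rose.

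The oxidase that supplies the oxidative burst before trap release had members in both directions. Of 8 genes, 2 rose (25%, against 22.6% of all genes) and 5 fell (62.5%, against 19.6%), with a median of -0.66, and with library totals 2 rose and 1 fell. Hvcn1, the proton channel, was at 21.4 ± 2.33 against 3.13 ± 1.04 CPM with a log2 difference of 2.76 (SE 0.27, adjusted p = 4.08e-05), and Cybb, the catalytic subunit, at 2.40 (SE 0.20, adjusted p = 1.41e-05).

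Genes that degrade or sense trap DNA, or clear it with dead cells, rose in ICAM1high. Of 13 tested, 11 rose and 0 fell (edgeR; 0 fell at an unadjusted p under 0.05 and by DESeq2 and limma-voom), with a median of 3.48, where 22.6% of all genes rose. The complement subunits C1qa, C1qb and C1qc were at 4.30, 4.18 and 4.23, with C1qa at 1184 ± 478 against 60.3 ± 16.6 CPM. They and Axl are also macrophage markers of the list above. Dnase1l3, a secreted nuclease that digests chromatin and was chosen after its value was seen, was at 8.80 ± 5.91 against 0.557 ± 0.720 CPM with a log2 difference of 3.97 (SE 0.79, adjusted p = 0.0027). Dnase2a, the lysosomal nuclease, was at 1.21 (adjusted p = 0.00134), and the DNA receptor Tlr9 at 3.48 (adjusted p = 0.000807), both also chosen after their values were seen. Trex1 was at 0 in all libraries, and with the counting tool and annotation release not given, this does not show that it was not expressed.

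Arginine residues can be methylated instead of deiminated, and the methyltransferases were tested as the enzymes that share the substrate. Of 10 tested genes of this list, 7 rose (70%, against 22.6% of all genes), 1 fell (10%, against 19.6%) and 2 did not pass, with a median of 0.95. Beside methyltransferases, the list held an arginine demethylase and Wdr77, a cofactor of Prmt5 named after its value was seen. Wdr77 did not pass (-0.52, edgeR, adjusted p = 0.159), and the 7 genes that rose were methyltransferases. Prmt6, which methylates histone H3, was at 3.52 ± 0.955 against 0.611 ± 0.302 CPM with a log2 difference of 2.52 (SE 0.44, adjusted p = 0.00136). It rests on 298 counts in ICAM1high and 39 in ICAM1low, and it missed the threshold in 1 of 20 alternatives. Prmt2 and the symmetric methyltransferase Prmt5 were at 1.63 (SE 0.25, adjusted p = 0.000684) and 1.497 (SE 0.22, adjusted p = 0.00051). The gene that fell, named after its value was seen, was Jmjd6, an arginine demethylase and lysyl hydroxylase, at -1.03 (adjusted p = 0.00202). The count of 7 was 4 without ICAM1high replicate 1, 2 or 3 or ICAM1low replicate 1, and 7 under library totals, where 0 fell. Without ICAM1high replicate 1 the list had 2 genes that fell.

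Of 13 genes of free arginine and citrulline metabolism, 4 rose and 4 fell (30.8% each, against 22.6% and 19.6% of all genes), with a median of 0.27. Gatm, which uses arginine to make the creatine precursor, was at 385 ± 53.3 against 17.2 ± 8.67 CPM with a log2 difference of 4.48 (SE 0.44, adjusted p = 4.51e-05). The arginases differed in direction, with cytosolic Arg1 at 2.46 (SE 0.28, adjusted p = 0.000117) and mitochondrial Arg2 at -1.81 (SE 0.15, adjusted p = 1.57e-05). Under library totals 7 rose and 2 fell.

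Calcium, which PAD enzymes require, enters the cytosol through channels of the cell membrane and of internal stores. Beside channels and store sensors, the list held pumps that remove calcium from the cytosol and phospholipases, so its counts do not describe entry alone. Of 23 tested genes of this list, 4 rose and 4 fell (17.4% each, near the 22.6% and 19.6% of all genes), with a median of 0.02, and 12 rose and 1 fell under library totals. The genes that rose were P2rx4 and, named after their values were seen, the channel P2rx7, the pump Atp2a2 and the phospholipase Plcg2. P2rx4, an ATP-gated channel, was at 69.9 ± 6.10 against 14.2 ± 3.32 CPM with a log2 difference of 2.29 (SE 0.20, adjusted p = 1.84e-05). Stim2, a store sensor, and the channel Trpv2 were at -1.05 and -1.07 (adjusted p = 0.000313 and 0.0003), and both missed the threshold under library totals, at -0.37 and -0.39. Without ICAM1low replicate 1, 8 genes rose.

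Of 24 tested genes whose proteins are reported as PAD substrates, 5 rose (20.8%, against 22.6% of all genes) and 11 fell (45.8%, against 19.6%), with a median of -0.26. Actg1, cytoplasmic actin, was at 1424 ± 263 against 5426 ± 1036 CPM with a log2 difference of -1.93 (SE 0.19, adjusted p = 4.93e-05). The glycolytic enzyme Pkm was at -1.27 (SE 0.17, adjusted p = 0.000317). E2f1, a cell cycle factor, was at 1.94 (SE 0.24, adjusted p = 0.000172). The genes of histone H3.3, H3f3a and H3f3b, were at -1.27 and -0.82 (adjusted p = 0.00033 and 0.00826), and vimentin, Vim, at 0.89 (adjusted p = 0.00465), all 3 chosen after their values were seen. Under library totals 10 rose and 5 fell, and 3 rose without ICAM1high replicate 2 or ICAM1low replicate 3.

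Transcription factors of the 2 lineages were also set beside the members. Of 14 granulocyte factors 10 fell (71.4%, against 19.6% of all genes) and 1 rose (7.14%, against 22.6%), with a median of -1.24. Under library totals 6 fell and 2 rose. Mxd1, a MYC antagonist, and the AP-1 subunit Junb were at -1.81 and -1.76 (adjusted p = 1.87e-05 and 1.19e-05). The factor that rose was Cebpa, at 122 ± 17.5 against 14.8 ± 2.83 CPM with a log2 difference of 3.04 (SE 0.19, adjusted p = 3.6e-06). Of 15 macrophage factors 7 rose (46.7%) and 1 fell (6.67%), with a median of 1.03, and 9 and 0 under library totals. Irf8 and Maf were at 3.84 and 3.65 (adjusted p = 1.28e-06 for each). The factor that fell, named after its value was seen, was Tfeb, a regulator of lysosomal genes, at -0.69 (adjusted p = 0.00544), and 2 fell without ICAM1low replicate 1.

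**Figure D5:**
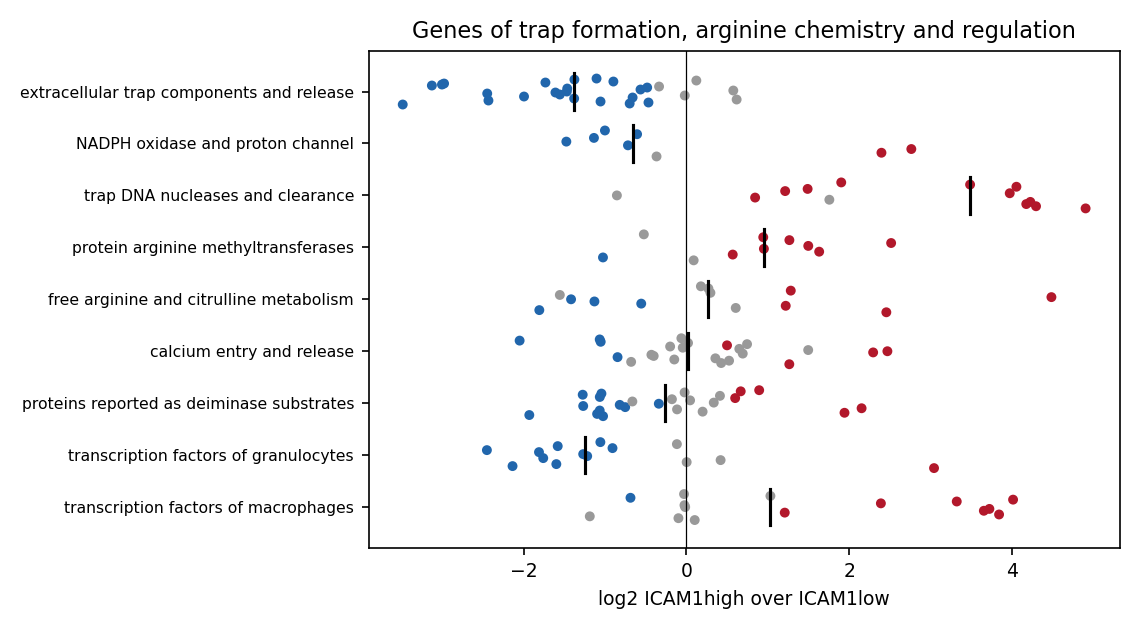
Log2 difference of ICAM1high over ICAM1low for each tested gene of 9 lists, 1 point per gene, red where higher and blue where lower at an adjusted p under 0.05, grey otherwise, with the list median as a black bar. Medians run from -1.38 for extracellular trap components to 3.48 for trap DNA nucleases and clearance.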

How the data were processed

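RNA was sequenced from 8 libraries of sorted tumour neutrophils, made from 100 ng of total RNA each with an mRNA-seq kit, per the labels' protocols. The authors deposited whole-number read counts per gene with no normalization. The deposited gene length in bases, an other quantity, was used only for levels per kilobase. Reads were aligned with HISAT2 to mm10, per the submitters' processing notes. Not given in the sources used here were read length, annotation release, counting tool, HISAT2 version and strand setting. GENCODE M21 held 99.8% of the gene IDs, 98.3% of them at the same position.

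Genes were filtered with filterByExpr and scaled by TMM, and the quasi-likelihood test was that of edgeR 4.0.16 in R 4.3.3, adjusted by Benjamini-Hochberg over 14051 genes; standard errors are the size of the log2 difference over the square root of F. Log2 CPM used a prior count of 2. Alternatives used DESeq2 1.42.0, limma 3.58.1 (voom), other scalings and filters, covariates and left-out libraries.

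The members, the gene lists, the motifs and the tests were chosen with earlier results of these data known. Named genes were the family, Icam1, tested genes within 250 kb of the cluster, the 10 genes most alike each member, and up to 3 genes of each list with the smallest p and an average log2 CPM of at least 1. Others are said to be chosen after their values were seen, except cell type markers and genes at 0. The list of clearance genes held 16 symbols, of which 14 matched the count table. The 2 that did not, Cgas and Sting1, are newer names of Mb21d1 and Tmem173. The list also held these older names, and both genes were tested. Protein sequences were not used here, and a few genes that this rule names are not reported here.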

Additional observations from a re-analysis of the deposited data

Results flagged for a closer look

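For the members and the other named genes, 118 groups of 4 libraries (59 genes) were checked for a library far from the others, by the gap to its nearest neighbour as a share of the group's range (Dixon's 95% limit). Chance flags about 1 in 20 groups, and 7 were found, of which 6 are described here. In neither fraction was Padi2 or Padi4 among them.

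ICAM1high replicate 1 was the high library in 3 cases. Necap2, a gene near the PAD cluster, was at 141 CPM there against 96.2 to 103 CPM in the other libraries. C1qa was at 1890 against 838 to 1010 CPM, and Actg1 at 1820 against 1250 to 1320 CPM. ICAM1low replicate 4 was the high library for Szrd1, also near the cluster, at 183 against 114 to 125 CPM. Pf4, one of the genes most like Padi2, was at 0.587 CPM in ICAM1low replicate 1 against 1.77 to 1.81 CPM in the others. E2f1 was at 3.22 CPM in ICAM1low replicate 3 against 3.68 to 3.74 CPM.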

How the results depend on the processing

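The Padi2 and Padi4 differences kept their direction under every alternative that gave a value. With 1 library left out, Padi2 ran from 3.32 to 4.81 and Padi4 from -2.69 to -2.48, and they were 3.38 and -2.47 when ICAM1high replicate 1 and ICAM1low replicate 4 were both absent. A filter of 50 counts in 4 libraries removed Padi2. Under library totals Padi4 was at -1.89, and 6818 genes were higher and 839 lower, against 3172 and 2748 with TMM, a result of the scaling itself. With replicates 1 and 2 alone, 1708 genes were higher and 1416 lower, and with replicates 3 and 4 alone 1658 and 1604, with fewer samples in each. Of the trap genes, 14 fell with replicates 1 and 2 alone. Genes called ran from 2345 to 3403 higher and 2157 to 2927 lower with 1 library left out. The run difference called 667 genes without a filter; the cause was not tested.

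Sign changes were found for Necap2, at 0.60 under library totals, 0.30 with replicates 1 and 2 alone and from -0.28 without ICAM1high replicate 1 to 0.14 without ICAM1low replicate 4; for Szrd1, at 0.04 under library totals; and for Sdhb, at -0.49 with replicates 3 and 4 alone and from -0.03 without ICAM1high replicate 1 to 0.69 without ICAM1low replicate 4. The cause was not tested. With the replicate number as a block, Padi2 was at 4.00 and Padi4 at -2.56, 2263 genes were higher and 1975 lower, and Crocc (adjusted p = 0.0917) and Szrd1 (0.0556) missed the threshold, while 3 substrate genes rose instead of 5. Same-numbered libraries correlated at -0.57, 0.21, 0.18 and -0.30 after removal of group means, and only number 2 matched its own partner best, so the numbers do not settle a pairing. With a prior count of 0.5, 7 of the 10 genes nearest to Padi2 and 9 of those nearest to Padi4 were shared. Depth limits Padi2 in ICAM1low, with 21 counts in all.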
